A study of Glycine max with 18 samples.

Results

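A set of 200 transcripts was described whose abundance was lower at metabolism reactivation than after imbibition in germinating seeds of the soybean mutant TW-1-M, but not in those of the mutant TW-1. The libraries came from TW-1-M at stages 1, 2 and 3 (TW-1-M-1, TW-1-M-2 and TW-1-M-3) and from TW-1 at the same stages (TW-1-1, TW-1-2 and TW-1-3), with 3 replicates in each of the 6 groups and 18 libraries in all. Gamma rays applied to the variety Taiwan 75 gave TW-1, within which TW-1-M arose naturally, so each mutant is a single line. Both are low in phytate, the phosphorus store of the seed, and carry the same deletion in GmMIPS1 according to the methods of the study; no library of the unmutated parent was analysed here. The labels describe the field emergence of the seeds as very low in TW-1 and as higher in TW-1-M. Stage 1 was the imbibed seed, stage 2 the reactivation of metabolism, which the labels place 12 h after imbibition and the methods at another time, and stage 3 the seed whose primary root measured 1 mm. Seed is named as the tissue, and the labels do not say whether replicates were separate lots of seed, so the p-values below measure only the spread between these libraries.

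The members were taken from values in FPKM, that is fragments scaled to transcript length and sequencing depth, on the scale log2(FPKM + 1). Of the 45955 genes in the deposited table, 27150 reached an FPKM of 1 in 3 or more libraries, and 26995 remained after the genes shown in the tables of the study and the 100 most abundant genes of stage 1 were removed. A gene was eligible when the median of stage 2 minus the median of stage 1 was -1 or less in TW-1-M and above -0.5 in TW-1, which 752 genes were. The 200 genes with the most negative difference between these 2 changes form the set, and 363 other genes were lower by 1 or more in both mutants. The members were thus chosen by the FPKM of stages 1 and 2 in both mutants, and what follows about these stages is a description. The stage 3 libraries played no part beyond the filter on low values, which all 200 members also passed in the 12 libraries of stages 1 and 2 alone.

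A dry soybean seed holds the transcripts of its own maturation, which encode storage globulins and albumins, oil body proteins, proteinase inhibitors, and proteins that protect cells from drying. As a seed takes up water and resumes metabolism, these transcripts are degraded, and messages for growth, cell wall loosening and reserve mobilisation take their place. Abscisic acid maintains the maturation programme and gibberellin promotes germination, so transcripts of both hormone pathways are often followed through these stages. In bulk RNA from seeds, fewer cells of a type and less RNA per cell cannot be told apart.

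Of the 200 members, 63 carried a protein description from the study or a gene symbol from the soybean reference, and 137 carried neither. Named members are given below by symbol or by description with the transcript identifier of the deposited table, and no role is given to the rest. The keyword lists read only the protein descriptions, which 44 members had, so that members known by symbol alone, such as ABI5, NAC3 and HSP22.3, were in no list. The lists for storage proteins and oil bodies took 6 members, redox and detoxification 4, and transport and kinases 2 each. Heat shock, ethylene, other hormones, transcription factors, cell wall, lipid and carbohydrate metabolism, and translation took 1 member each. The lists for late embryogenesis abundant proteins, raffinose sugars, abscisic acid, proteolysis and photosynthesis took none. The tables of the study name late embryogenesis abundant proteins, galactinol and stachyose synthases and an abscisic acid receptor. Such genes were removed beforehand where they could be paired, as were the most abundant genes of stage 1. The empty lists therefore do not show how these families behaved.

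The level of the set as a whole separated the mutants first at stage 2. The median FPKM over the members was 19.3, 21.6 and 13.9 in the 3 stage 1 libraries of TW-1-M, 3.75, 6.17 and 3.84 at stage 2, and 2.52, 4.88 and 2.13 at stage 3. In TW-1 it was 22.5, 13.3 and 22.0 at stage 1, 24.1, 16.8 and 19.3 at stage 2, and 8.74, 5.86 and 6.07 at stage 3. TW-1 at stage 3 thus lay between TW-1-M at stage 1 and TW-1-M at stage 3. At stage 1 the mutants overlapped, and 111 members had the higher median in TW-1-M-1 while 89 had it in TW-1-1. The plot of the members by library shows these levels.

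**Figure D1:**
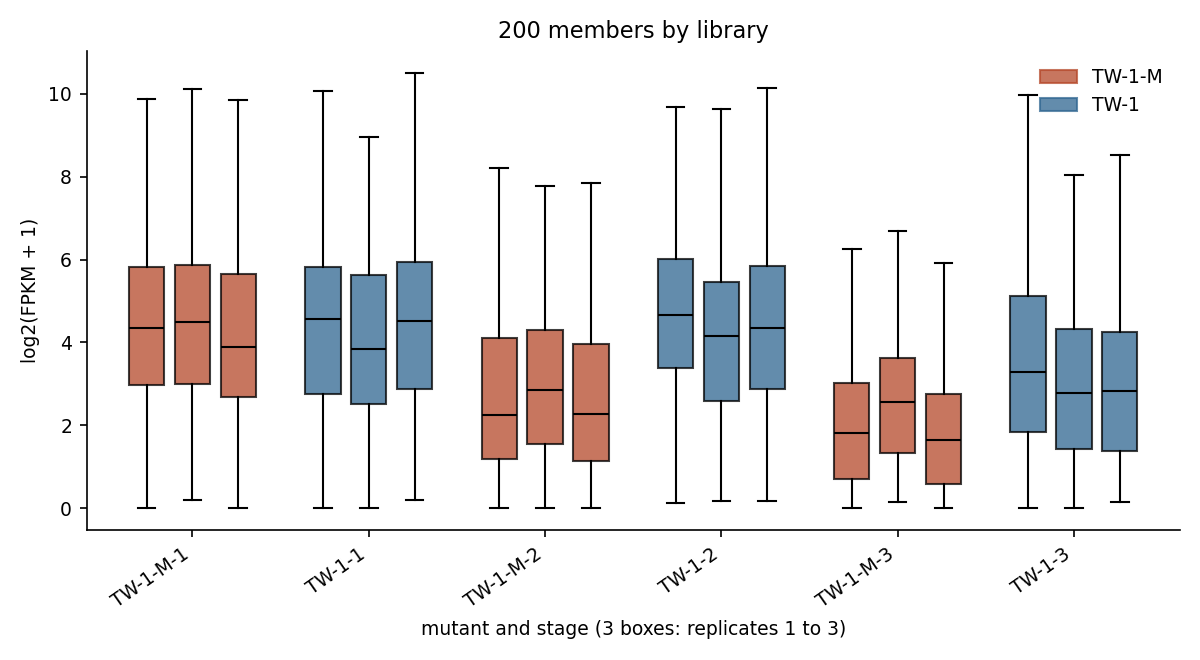
Boxes give the median and quartiles of log2(FPKM + 1) over the 200 members in each of the 18 libraries, with whiskers to the most extreme value within 1.5 times the box height and values beyond them not drawn. The medians of TW-1-M-2 and TW-1-M-3 lie below those of TW-1-2, and the TW-1-3 medians lie above those of TW-1-M-3 and below those of TW-1-2.

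Some libraries were as close to another group as to their own, or closer. Over all 27150 genes, replicate 1 of TW-1-3 correlated at a mean r of 0.93 with TW-1-1 but 0.78 with the other TW-1-3 libraries, and replicate 1 of TW-1-2 at 0.96 with TW-1-1 and 0.91 with its own group. Replicate 2 of TW-1-M-3 correlated at 0.95 both with TW-1-M-2 and with its own group, where the other TW-1-M-3 libraries stood at 0.89 and 0.91 with TW-1-M-2. Replicates 2 and 3 of TW-1-3 both stood at 0.94 with TW-1-M-3, and their means with their own group were 0.87 and 0.88. These own-group means include the correlation with replicate 1. They therefore do not show that replicates 2 and 3 were closer to TW-1-M-3 than to each other. Of 26 seed marker symbols, 16 had a row in the table, of which 3 were members (CG-1, GY4 and LOX2) and 1 stayed below an FPKM of 1 in every library. Synonyms were not matched, so the member listed under the synonym sbp, described below, is in none of the marker counts. The summed FPKM of the 16 markers ranged over 20228 to 25392 at stage 1 of TW-1-M, 4532 to 6818 at stage 2 and 380.0 to 2527 at stage 3. For TW-1 the sums were 25362 to 34722 at stage 1, 15126 to 23766 at stage 2 and 2796 to 18038 at stage 3. Seed markers were thus present at every stage. Their sums were lower at stage 2 than at stage 1 without overlap in both mutants. LOX3, PM30 and PM31 had the highest medians of the markers at both stages and so weigh most in these sums. In TW-1-1 their medians were 11953, 13468 and 2619 FPKM, and all were removed before the members were chosen. The medians over the members were lower without overlap only in TW-1-M. The rule chose the members by these same changes, so this cannot be set against the markers. The part of the markers in the results was not tested. Both leaf markers found (RBCS1 and CAB3) had higher medians at stage 3 than at stage 1 in both mutants. These stages did not overlap in TW-1-M. In TW-1 they did, with 39.15 and 28.47 FPKM in replicate 1 of TW-1-3 against 112.25 and 100.97 in replicate 3 of TW-1-1. The nodule marker LB1 was at or near 0.

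Within the set the change by reactivation varied widely. The TW-1-M change had a median of -1.79 on the log2 scale and ran over -4.28 to -1.01, and the TW-1 change had a median of 0.05 and ran over -0.50 to 2.26. All 3 TW-1-M-2 libraries were below all 3 TW-1-M-1 libraries for 141 members, as for 23.0% of all genes, and below all TW-1-2 libraries for 137, as for 21.5% of all genes. The other 59 members overlapped between stages 1 and 2 of TW-1-M although their medians met the rule. In TW-1 the value at stage 2 was above that at stage 1 for 107 members, by at least 0.5 for 36, and by at least 1 for 7. The members just inside the limit of 200 were XM_003546189.3, XM_014764250.1 and XM_003556741.3, with differences between the mutants of -1.43, -1.43 and -1.42, and just outside lay XM_006587514.2, XM_006576124.2 and XM_014769927.1 with -1.42, -1.42 and -1.41. The limit therefore falls in a continuous range, as the plot of both changes shows.

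**Figure D2:**
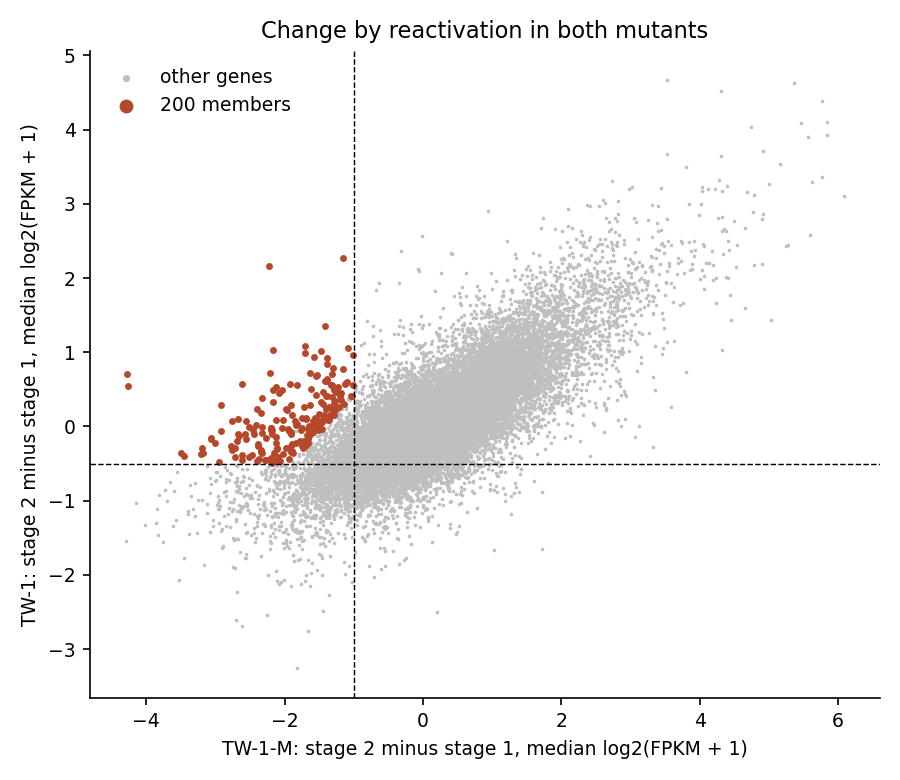
Each point is a gene that reached an FPKM of 1 in 3 or more libraries; the x axis gives the change of TW-1-M and the y axis that of TW-1, as stage 2 minus stage 1 of the median log2(FPKM + 1). Dashed lines mark the limits of -1 and -0.5, and the 200 members lie in the upper left, with TW-1-M changes of -4.28 to -1.01.

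At stage 3, which the rule did not use, most members had the lower mean in TW-1-M. A difference was called with limma where the unadjusted p-value was below 0.05 and the log2 fold change beyond 1 in size. The study gives the same limits, but its methods name both a corrected p-value and a p-value. The rule used here took the unadjusted reading. By this rule 48 of 200 members (24.0%) were lower in TW-1-M-3 than in TW-1-3 and 2 were higher, beside 3.05% and 1.99% of all 27150 genes tested. The median log2 fold change was -0.88 over the members and 0.01 over all genes. The mean was lower in TW-1-M-3 for 169 members (84.5%), against 49.4% of all genes. After Benjamini-Hochberg adjustment in limma no member was called, while 57 members had an unadjusted p-value below 0.05, as did 8.87% of all genes, and over all genes 3 were called lower (0.011%) and 2 higher (0.00737%).

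The libraries of stage 3 did not overlap for 59 members. All 3 TW-1-M-3 libraries were below all 3 TW-1-3 libraries for 54 members (27.0%) and above them for 5, against 11.4% and 9.86% of all genes. Without replicate 1 of TW-1-3, which resembled stage 1, 52 members were lower and 4 higher, beside 2.22% and 1.2% of all genes, with medians of -0.51 over the members and -0.02 over all genes. Leaving out replicate 1 of TW-1-M-3 gave 35 lower members (all genes, 1.37%), leaving out its replicate 2 gave 53 (3.01%), and leaving out its replicate 3 gave 36 (1.78%). The fit over all 18 libraries called 24 members lower after adjustment, beside 508 of all genes (1.87%) where the fit of stage 3 alone called 3.

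**Figure D3:**
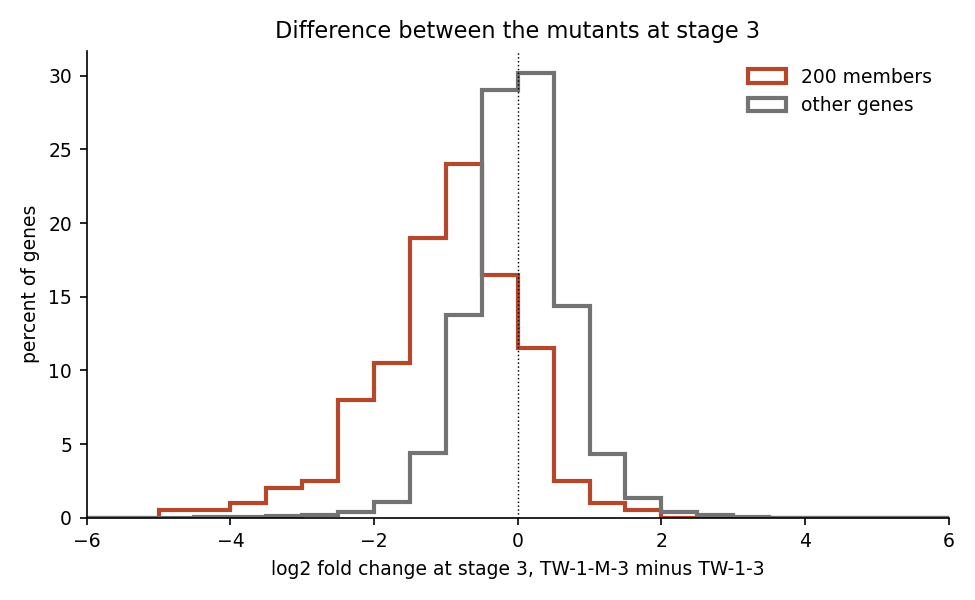
Histogram of the limma log2 fold change at stage 3, TW-1-M minus TW-1, in bins of 0.5, as a percent of the 200 members and of the other genes tested. The members centre on -0.88 and all genes on 0.01.

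Genes that were lower at reactivation in both mutants gave a stage 3 picture of the same kind. Of these 363 genes, 64 (17.6%) were called lower at stage 3 in TW-1-M and none higher, with a median of -0.86. Of the 552 genes that met both limits but were not among the 200, 45 (8.15%) were lower and 3 higher, with a median of -0.56. The mean was lower in TW-1-M-3 for 93.9% of the 363 genes and 87.7% of the 552, beside 84.5% of the members. All TW-1-M-3 libraries were below all TW-1-3 libraries for 30.3% of the 363 and 20.3% of the 552, beside 27.0%. Lower levels at stage 3 were thus also seen outside the set, and the sets were not tested against each other.

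In TW-1 most members were lower at stage 3 than at stage 2. The TW-1 median at stage 3 was lower than at stage 1 by 1 or more for 119 members (59.5%), against 17.3% of all genes, and lower than at stage 2 by as much for 131, against 9.02%. In TW-1-M the median at stage 3 was lower than at stage 1 by 1 or more for 175 members, against 16.8% of all genes, and lower than at stage 2 for 63, against 5.13%. The stage 1 and stage 2 values here are those that chose the members. Of the 36 members that stood at least 0.5 higher at stage 2 in TW-1, 7 were lower than at stage 1 by 1 or more at stage 3, and of the other 164, 112 were. Both changes subtract the same TW-1-1 median, so this contrast is partly built in. The shares of all genes split in this way were not computed.

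The keyword list for storage proteins and oil bodies held 6 members, among them a Bowman-Birk proteinase inhibitor. Of these 6 members, 5 were lower in TW-1-M-3 than in TW-1-3 and none was higher, with a median log2 fold change of -2.65. By the same rule 24.0% of all members and 3.05% of all genes were lower. CG-1, which encodes the alpha prime subunit of the storage globulin beta-conglycinin, had 200.5, 515 and 466 FPKM at stage 1 of TW-1-M, 55.1, 65.1 and 54.5 at stage 2 and 11.9, 14.8 and 3.85 at stage 3. In TW-1 CG-1 had 253, 159 and 258 at stage 1, 227, 113 and 320.4 at stage 2 and 79.1, 41.5 and 32.5 at stage 3. The mutants overlapped at stage 1 and separated at stages 2 and 3, where the log2 fold change of TW-1-M-3 was -2.28 ± 0.55 (SE, n = 3 each; limma adjusted p = 0.499).

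GY4, a glycinin of the other large globulin family, was already lower at stage 1 in TW-1-M. Its FPKM was 62.8, 95.6 and 94.5 at stage 1 of TW-1-M, 29.7, 25.6 and 20.1 at stage 2 and 5.2, 9.29 and 1.06 at stage 3. In TW-1 GY4 had 171, 294 and 143 at stage 1, 180.2, 131 and 227 at stage 2 and 95.9, 24.5 and 33.1 at stage 3. No pair of groups of the same stage overlapped, and the stage 3 log2 fold change was -3.11 ± 0.73 (adjusted p = 0.489, limma).

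The napin-type 2S albumin (NM_001248764.1), a sulfur-rich storage protein, was among the 5 most abundant members. It had 842, 1380.3 and 876 FPKM at stage 1 of TW-1-M, 179.9, 138 and 147 at stage 2 and 21.1, 28.01 and 16.6 at stage 3. In TW-1 the albumin had 779, 185 and 691 at stage 1, 709, 237 and 646 at stage 2 and 135, 148 and 67.6 at stage 3. TW-1-M thus stood above TW-1 at stage 1 and below it at stages 2 and 3 with no overlap, with a stage 3 log2 fold change of -2.32 ± 0.40 (adjusted p = 0.24, limma).

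An oleosin 1-like transcript (XM_003526416.3), which encodes a protein of the oil body surface, took a course close to that of the albumin. Its FPKM was 701, 1116 and 929.9 at stage 1 of TW-1-M, 109, 198 and 141 at stage 2 and 29.9, 24.7 and 14.02 at stage 3. In TW-1 the oleosin had 715, 229 and 1046 at stage 1, 616, 244 and 586 at stage 2 and 289.8, 208 and 97.99 at stage 3. The stage 3 groups did not overlap, and the log2 fold change was -2.99 ± 0.50 (adjusted p = 0.215, limma).

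The proteinase inhibitor and the last globulin of the group differed from each other. D-II, a Bowman-Birk inhibitor of trypsin-like proteinases, had 149.9, 273 and 285 FPKM at stage 1 of TW-1-M, 51.9, 83.9 and 88.02 at stage 2 and 12.7, 25.9 and 13.3 at stage 3. In TW-1 D-II had 572, 433 and 1461 at stage 1, 1047, 456 and 620.4 at stage 2 and 587, 211 and 78.9 at stage 3. D-II was lower in TW-1-M at every stage without overlap, with -3.63 ± 0.73 on the log2 scale at stage 3 (adjusted p = 0.367, limma). The basic 7S globulin-like transcript (XM_003542835.3) had 9.53, 43.5 and 59.9 FPKM in TW-1-M-3 and 80.9, 37.8 and 49.9 in TW-1-3. These overlapped, and its log2 fold change of -0.84 ± 0.69 was not called.

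**Figure D4:**
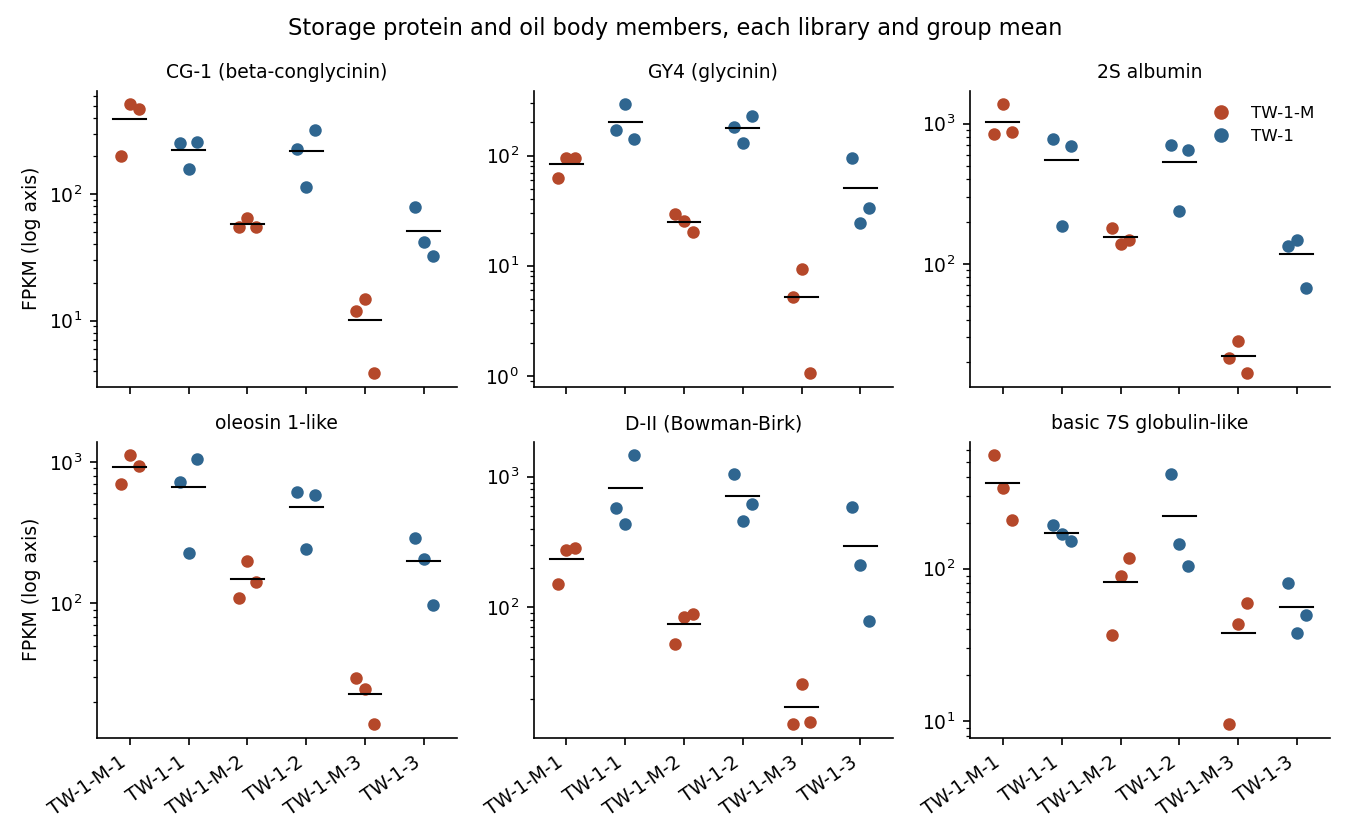
FPKM (log axis) of the 6 storage protein and oil body members in every library; points are replicates and lines are group means, with TW-1-M left of TW-1 at each stage. In all but the basic 7S globulin-like transcript the 3 TW-1-M-3 points lie below the 3 TW-1-3 points.

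Seed protein transcripts outside the keyword lists were also lower in TW-1-M-3. The transcript of the allergen Gly m Bd 28K (NM_001280572.1) had 276, 751 and 688 FPKM at stage 1 of TW-1-M, 54.5, 83.02 and 62.1 at stage 2 and 5.25, 6.97 and 2.57 at stage 3. In TW-1 the allergen transcript had 986, 183 and 1242 at stage 1, 747, 329 and 849 at stage 2 and 316, 145 and 98.99 at stage 3. Its stage 3 log2 fold change of -4.89 ± 0.52 had the smallest p-value of the 200 members, with an adjusted p of 0.0726 (limma). A transcript listed under the synonym sbp (NM_001289379.1), the symbol of the sucrose-binding protein of soybean seeds, had 2.61, 2.49 and 0.57 FPKM in TW-1-M-3 and 31.2, 9.07 and 5.77 in TW-1-3, a log2 fold change of -2.26 ± 0.64.

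A water channel, a phosphate carrier and a lipoxygenase were also lower in TW-1-M-3. A probable aquaporin of the TIP alpha type (XM_003536134.3), which in bean lies in the membrane of protein storage vacuoles, had 17.5, 35.6 and 19.03 FPKM in TW-1-M-2 and 161, 118 and 279 in TW-1-2. At stage 3 the aquaporin had 3.91, 7.89 and 1.99 in TW-1-M-3 and 90.6, 58.4 and 28.9 in TW-1-3, a log2 fold change of -3.43 ± 0.55 (adjusted p = 0.209, limma). PHO1-H13, a homolog of the phosphate exporter PHO1 of Arabidopsis, had 0.21, 0.18 and 0.21 in TW-1-M-3 and 14.1, 4.57 and 2.26 in TW-1-3, a log2 fold change of -2.44 ± 0.53. Neither transporter overlapped between the mutants at stage 3. LOX2, a lipoxygenase that oxidises unsaturated fatty acids and is abundant in soybean seeds, had 20.1, 14.01 and 15.7 FPKM in TW-1-M-3 and 51.8, 37.4 and 45.5 in TW-1-3, a log2 fold change of -1.39 ± 0.29 with no overlap. The related probable linoleate 9S-lipoxygenase 5 (XM_003536028.2) had 1.77, 3.19 and 2.7 in TW-1-M-3 and 21.03, 4.2 and 3.79 in TW-1-3, which did not pass the rule although the groups did not overlap.

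Some seed markers that are not members also passed at stage 3, where 24.0% of the members and 3.05% of all genes were called lower. Of the 14 seed markers tested, 6 were called lower in TW-1-M-3 and none higher, at a median difference of -1.78 on the log2 scale, and among the 11 that are not members 3 were lower with a median of -1.72. Of these 11, the change by reactivation was -1 or less for 7 in TW-1-M and for 4 in TW-1.

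Of the transcription factor and hormone members, only some passed at stage 3. ABI5, named for the bZIP factor of abscisic acid responses in Arabidopsis seeds, had 9.4, 48.2 and 51.2 FPKM at stage 1 of TW-1-M, 17.3, 13.95 and 11.1 at stage 2 and 3.23, 2.62 and 6 at stage 3. In TW-1 ABI5 had 41.5, 16.7 and 66.04 at stage 1, 16.4, 36.04 and 71.2 at stage 2 and 9.19, 16.96 and 11.7 at stage 3. At stage 1 replicate 1 of TW-1-M was below the other libraries and at stage 2 the mutants overlapped, but at stage 3 they did not, with a log2 fold change of -1.48 ± 0.36 (adjusted p = 0.499, limma). BZIP132, another bZIP gene, had 40.6, 58.5 and 37.6 in TW-1-M-2 and 83.5, 48.5 and 98.8 in TW-1-2, which overlapped. At stage 3 BZIP132 had 15.3, 13.2 and 18.1 in TW-1-M-3 and 57.3, 62.7 and 31.5 in TW-1-3, a log2 fold change of -1.59 ± 0.35 with no overlap.

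By median, other regulators were lower at stage 2 in TW-1-M but not called at stage 3. An ethylene-responsive transcription factor 1A-like transcript (XM_003524022.3), of a family that acts downstream of ethylene, had 3.01, 8.26 and 3.7 FPKM in TW-1-M-2 and 44.3, 40.95 and 14.6 in TW-1-2. At stage 3 it had 6.78, 9.87 and 1.49 in TW-1-M-3 and 69.3, 2.96 and 11.5 in TW-1-3, where replicate 1 of TW-1 alone was high. NAC3, a NAC family factor, had 2.8, 5.51 and 2.81 in TW-1-M-2 and 10.7, 21.6 and 13.3 in TW-1-2. The mutants thus did not overlap at stage 2 for NAC3, and at stage 3 they did. A probable WRKY transcription factor 33 (XM_006602627.2) had 0.27, 0.36 and 0.75 in TW-1-M-2 and 11.8, 3.79 and 1.13 in TW-1-2. WRKY27 had 2.49, 2.19 and 4.15 in TW-1-M-2 and 12.7, 5.58 and 0.82 in TW-1-2. The first of these WRKY genes did not overlap at stage 2 and the other did. TGA03, a member of the TGA class of bZIP factors, had 1.36, 2 and 1.29 in TW-1-M-2 and 8.6, 4.86 and 6.9 in TW-1-2. None of these 5 passed the rule at stage 3.

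Members of the gibberellin and auxin pathways took different courses. GA2OX2 and GA2OX5 carry the name of gibberellin 2-oxidases, which inactivate gibberellins, and both had their highest median in TW-1-M-1. GA2OX2 had 14.1, 3.79 and 4.21 FPKM in TW-1-M-1 against 1.32, 0.38 and 0.67 in TW-1-1, and 0.74, 1.1 and 2.67 in TW-1-M-2 against 2.38, 1.2 and 0.9 in TW-1-2. GA2OX5 had 19.7, 10.4 and 5.91 in TW-1-M-1 against 6.26, 3.2 and 7.15 in TW-1-1, and 3.74, 6.17 and 4.17 in TW-1-M-2 against 10.4, 7.93 and 6.17 in TW-1-2. At stage 2 the mutants overlapped for GA2OX2, and for GA2OX5 their nearest libraries had the same value. GASA37, of the gibberellin-stimulated GASA family, had 1.04, 2.11 and 0.71 in TW-1-M-2 against 8.91, 6.82 and 9.19 in TW-1-2 and 0.28, 0.21 and 0.08 in TW-1-M-3 against 4.67, 0.91 and 0.43 in TW-1-3. Its stage 3 log2 fold change of -1.07 ± 0.50 did not pass, although the groups did not overlap. A GH3.6-like transcript (XM_003543231.3), of a family that joins auxin to amino acids, had 0.49, 0.51 and 0.5 in TW-1-M-3 and 2.81, 2.81 and 1.07 in TW-1-3, a log2 fold change of -1.05 ± 0.29 that passed.

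Of the 4 redox and detoxification members, 2 were called lower in TW-1-M-3 and none higher, beside 3.05% of all genes called lower. An aldose reductase-like transcript (XM_003551537.3) had 0.61, 0.51 and 0.71 FPKM in TW-1-M-3 and 10.2, 7.18 and 3.49 in TW-1-3, a log2 fold change of -2.21 ± 0.36 (adjusted p = 0.209, limma). A 1-Cys peroxiredoxin-like transcript (XM_014775650.1), of a peroxidase type found in seeds, had 0.05, 0.15 and 0 in TW-1-M-3 and 1.03, 3.99 and 0.36 in TW-1-3, a log2 fold change of -1.17 ± 0.46. Both sets of libraries were separate. The 12-oxophytodienoate reductase 2 transcript (XM_003517519.3) instead had 45.5, 55.9 and 26.9 in TW-1-M-2 and 413, 417 and 272 in TW-1-2, but 114, 87.1 and 51.7 in TW-1-M-3 and 152, 28.4 and 35.7 in TW-1-3. The mutants were thus separate at stage 2 and overlapped at stage 3, with a log2 fold change of 0.56 ± 0.68. A probable glutathione S-transferase (XM_003529075.3) overlapped between the mutants at stages 2 and 3, with 5.58, 13.7 and 11.9 in TW-1-M-2 and 40.1, 12.7 and 19.6 in TW-1-2.

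Small heat shock protein transcripts, whose products keep other proteins from aggregating, had lower medians at stage 3 than at stage 1 in both mutants. The 17.5 kDa class I transcript (XM_003529296.3) had 6.93, 6.96 and 3.28 FPKM at stage 1 of TW-1-M, 0.54, 0.24 and 0.5 at stage 2 and 0.07, 0.11 and 0.16 at stage 3. In TW-1 this transcript had 38.1, 11.03 and 49.3 at stage 1, 79.8, 27.4 and 8.86 at stage 2 and 2.35, 0.88 and 0.51 at stage 3. It was lower in TW-1-M at every stage without overlap, but its stage 3 log2 fold change of -0.93 ± 0.31 was within the limit of 1. HSP17.5-E had 0.58, 0.52 and 0.59 in TW-1-M-2 and 27.5, 11.5 and 3.71 in TW-1-2. HSP22.3 had 2.3, 6.16 and 5.11 in TW-1-M-2 and 38.4, 30.6 and 16.5 in TW-1-2. Neither was called at stage 3.

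Among the remaining described members, metabolic enzymes varied in their stage 3 outcome. GDP-L-galactose phosphorylase 1 (XM_003519540.3), an enzyme of ascorbate synthesis, had 31.6, 20.7 and 23.8 FPKM in TW-1-M-2 and 177, 98.9 and 117 in TW-1-2. A transcript listed under the beta-amylase synonym BMY1 (NM_001249435.1), an enzyme that releases maltose from starch, had 16.7, 32.5 and 23.1 in TW-1-M-2 and 94.4, 105 and 40.5 in TW-1-2. Both were separate at stage 2 and overlapped at stage 3. ALDH3H1, an aldehyde dehydrogenase, had 9.33, 18.6 and 8.57 in TW-1-M-2 and 46.9, 36.4 and 49.98 in TW-1-2, but 12.7, 16.6 and 4.53 in TW-1-M-3 and 15.4, 7.32 and 5.58 in TW-1-3. SC-04, described as a thiamin biosynthetic enzyme, had 8.88, 3.61 and 5.48 in TW-1-M-3 and 20.2, 44.9 and 22.04 in TW-1-3. SC-04 was lower in TW-1-M-3 with a log2 fold change of -2.08 ± 0.43, while ALDH3H1 was not called. ALDH11A2, of the same enzyme family as ALDH3H1, had 0.96, 1.78 and 0.69 in TW-1-M-3 and 6.66, 2.52 and 3.13 in TW-1-3, a log2 fold change of -1.20 ± 0.37 that passed.

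A few abundant members stayed high in TW-1 to stage 3. The metallothionein-like protein 1 transcript (XM_003550234.3), whose product binds metal ions, had 189, 80.9 and 167 FPKM at stage 1 of TW-1-M, 56.7, 218 and 62.2 at stage 2 and 172, 196 and 131 at stage 3. In TW-1 the metallothionein had 242, 275 and 207 at stage 1, 228, 369 and 461 at stage 2 and 1093, 518 and 423 at stage 3. It is among 8 members with a difference of at least 1 between stage 3 and stage 1 in TW-1, which 22.4% of all genes showed. At stage 3 the mutants did not overlap, with a log2 fold change of -1.92 ± 0.44 (adjusted p = 0.456, limma). Replicate 2 of TW-1-M-2 was above all 3 TW-1-M-1 libraries, so the lower median at stage 2 rests on the other replicates.

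Pro-hevein, a chitin-binding protein, gave a like picture at higher abundance. Its transcript (XM_003554656.3) had 202, 551 and 229.9 FPKM in TW-1-M-2 and 818, 791 and 1119 in TW-1-2. At stage 3 pro-hevein had 158, 192 and 154 in TW-1-M-3 and 1209, 761 and 354 in TW-1-3, a log2 fold change of -2.04 ± 0.48 with no overlap. A glycine-rich cell wall structural protein 2-like transcript (XM_006606760.1) had 113, 99.7 and 38.6 in TW-1-M-3 and 1002, 205 and 107 in TW-1-3. These overlapped, and replicate 1 of TW-1-3 alone set the high mean.

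Several members at the head of the ranking spread widely between replicates. PRP3, the first of the 200, had 32.3, 9.62 and 25.8 FPKM at stage 1 of TW-1-M, 0.38, 10.6 and 0 at stage 2 and 11.4, 101 and 0.13 at stage 3. In TW-1 PRP3 had 20.4, 38.1 and 43.1 at stage 1, 62.6, 21 and 66.4 at stage 2 and 10.5, 37.8 and 159 at stage 3. Replicate 2 of TW-1-M was thus at the level of TW-1 at stage 3 while replicate 3 was near 0, and the log2 fold change of -1.88 ± 1.69 was not called (adjusted p = 0.615, limma). VPE2, a vacuolar processing enzyme, which belongs to the proteases that mature storage proteins, had 0.36, 1.09 and 0.29 in TW-1-M-2 and 0.46, 13.5 and 0.26 in TW-1-M-3. In TW-1 VPE2 had 10.9, 11.5 and 32.5 at stage 2 and 2.06, 15.01 and 25.5 at stage 3. Here too replicate 2 of TW-1-M-3 was the high library, and replicate 1 of TW-1-3 the low one.

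This pattern, noticed after the values were seen, recurred in many members. Replicate 2 was the highest TW-1-M-3 library for 114 of the 200 members, as for 29.7% of all genes. It was also the highest for 10 of the 11 seed markers tested that are not members, among them LOX3 with 395, 1822 and 106 FPKM in TW-1-M-3 and GY2 with 20.8, 83.5 and 3.31. The replicate was thus high for seed markers as well as members, and the part of this library in the results was not tested. Replicate 2 of TW-1-M-3 exceeded both other replicates by at least 2 on the log2 scale for 17 members (8.5%), against 52 of all 27150 genes (0.192%), and by at least 1 for 38 members (19.0%), against 1.96%. The 17 members include 5 of the first 20, among them PRP3, XM_006592541.2 and NM_001251771.1, and 9 of the 36 members that stood at least 0.5 higher at stage 2 in TW-1. Their median FPKM was 0.59, 13.5 and 0 in the 3 TW-1-M-3 libraries, and 0, 1.14 and 0 in TW-1-M-2. In TW-1 it was 17.8, 8.22 and 21.8 at stage 2, and 1.69, 11.8 and 22.4 at stage 3. The 17 were chosen by the TW-1-M-3 libraries and the members by low TW-1-M-2 medians, so the order of these medians is no result. Replicate 2 was the highest of TW-1-M-2 for 13 of the 17, as it was for the median over all 200 members. In the 363 genes that were lower in both mutants, 6 (1.65%) passed the limit of 2.

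**Figure D5:**
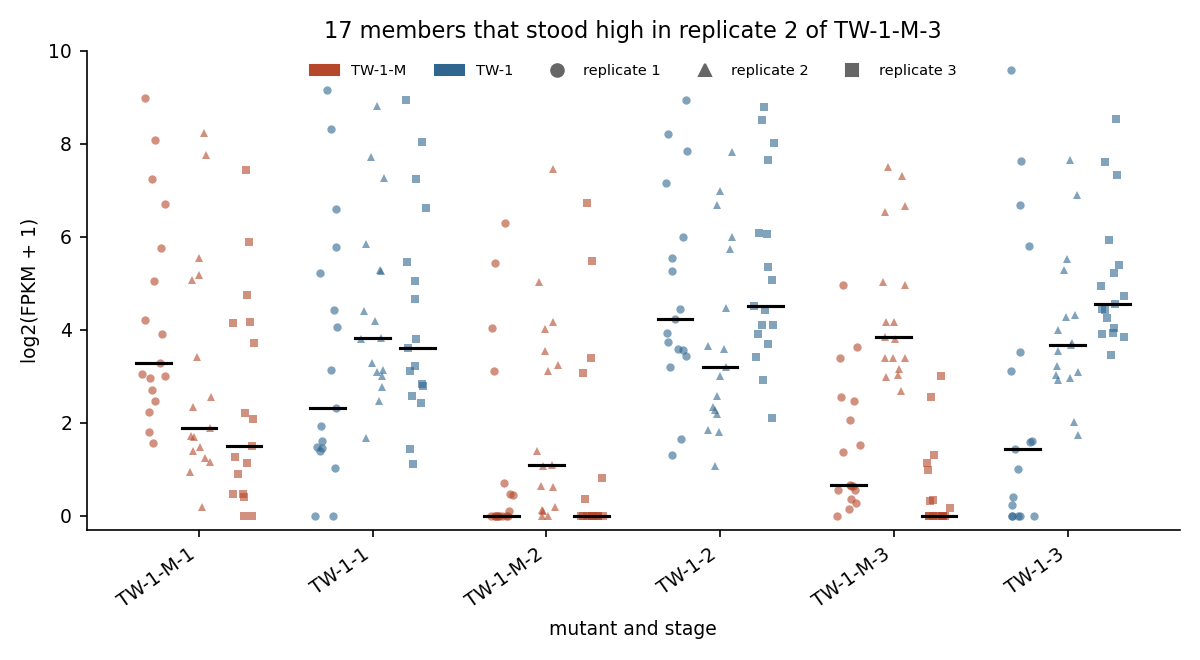
Log2(FPKM + 1) of the 17 members that stood at least 2 higher in replicate 2 of TW-1-M-3 than in its other replicates; points are genes, marker shapes are replicates and short lines are library medians. In TW-1-M-3 replicate 2 has a median FPKM of 13.5, beside 0.59 and 0 in the others.

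MIPS4, which bears the name of the enzyme that makes the inositol ring of phytate and belongs to the family of the mutated GmMIPS1, showed a smaller spread of this kind. MIPS4 had 2.2, 0.69 and 2.87 FPKM at stage 1 of TW-1-M, 0.11, 1.47 and 0 at stage 2 and 2.73, 9.82 and 0.17 at stage 3. In TW-1 MIPS4 had 2.54, 4.14 and 17.8 at stage 1, 28.4, 2.14 and 7.3 at stage 2 and 2.11, 3 and 13.4 at stage 3. The mutants did not overlap at stage 2 but did at stages 1 and 3, where the log2 fold change of -0.64 ± 0.91 was not called. Without replicate 3 of TW-1-3 or of TW-1-M-3 its sign turned, with 0.04 and 0.17.

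The 2 members called higher in TW-1-M-3 carried no description. XM_003553979.3 had 11.3, 8.04 and 20.99 FPKM in TW-1-M-3 and 6.1, 2.26 and 6.82 in TW-1-3, a log2 fold change of 1.25 ± 0.48 (adjusted p = 0.538, limma). XM_003542682.3 had 60.3, 50.3 and 47.6 in TW-1-M-3 and 41.01, 24.5 and 14.1 in TW-1-3, a log2 fold change of 1.08 ± 0.42. Both were lower in TW-1-M-2 than in TW-1-2 by median, so the order of the mutants differed between the stages. Other settings gave 1 to 4 such members.

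A small number of members were detected almost only in TW-1-M. XM_014762761.1 had 11.4, 16.3 and 11.3 FPKM in TW-1-M-1 against 0.37, 0 and 0.14 in TW-1-1, and 2.69, 1.88 and 5.46 in TW-1-M-2 against 0.74, 0.12 and 0.12 in TW-1-2. A GPI transamidase component PIG-S-like transcript (XM_003551348.3) had 7.37, 14.2 and 9.33 in TW-1-M-1 against 0.05, 0.15 and 0.39 in TW-1-1, and 13.8, 7.37 and 0 in TW-1-M-3 against 0.27, 0.35 and 0.77 in TW-1-3. These 2 are among 3 members that stayed below an FPKM of 1 in every TW-1 library, and their median in TW-1-1 was too near 0 for the limit of TW-1 to bear on them. Both stood higher in TW-1-M at stages 1 and 2 with no overlap.

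Abundant members were called more often at stage 3 than scarce ones. The mean FPKM over the 6 stage 1 libraries ran over 0.995 to 961 with a median of 19.7, and 21 of the 33 members at 100 or more were lower in TW-1-M-3, beside 5 of the 69 members below 10. The 1 added to FPKM makes log2 differences of the low members smaller. Described or named members were lower in 22 of 63 cases and the rest in 26 of 137, with medians of -1.07 and -0.78. Of all genes 3.05% were lower, and their shares by abundance or description were not computed. Whether these differences are particular to the members is therefore unknown. The most abundant member, XM_003528654.3, had 28.4, 103 and 8.38 FPKM in TW-1-M-3 and 736, 36.5 and 36.2 in TW-1-3, which overlapped.

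Members were spread over the genome. In a reference table of a later assembly, 172 members had a place, on all 20 chromosomes with 3 to 15 members each, and 6 overlapped another gene, so their reads may not be told apart from those of the neighbour. In 3 cases a pair of members lay within 5 genes of each other, namely NM_001248034.1 with NM_001248208.1 on chromosome 15, XM_003529079.3 with HSP26-A on chromosome 7, and the metallothionein with XM_003550235.3 on chromosome 17. The pair on chromosome 15 shared the spread between replicates described above, with 1.44, 8.74 and 0.27 FPKM in TW-1-M-3 for NM_001248034.1 and 0.46, 6.87 and 0 in TW-1-M-3 for NM_001248208.1. Globulins, heat shock proteins and other families of soybean hold near-identical copies, and how reads were shared between them is not given in the sources used here.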

How the data were processed

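RNA-seq libraries of germinating seeds were compared for 2 mutants at 3 stages with 3 replicates each. The authors trimmed reads with Trimmomatic, mapped them with TopHat, whose versions are not given in the sources used here, and deposited one table of FPKM per gene and library made with cuffquant and cuffnorm. These FPKM values carry the authors' scaling between libraries and hold no read counts, so counting intervals and detection limits were not computed. All 18 columns were matched to a sample by name.

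Log2(FPKM + 1) was used throughout. The members were found by the rule given in the report, and 71 of the 78 genes in the tables of the study could be paired with the table and removed. The members and lists were chosen with earlier results of these data known. Stage 3 of TW-1-M was compared with stage 3 of TW-1 in limma 3.58.1 in R 4.3.3 (lmFit, eBayes with a trend, two-sided), fitted on 27150 genes with Benjamini-Hochberg adjustment over all of them. A simulation with known changes checked only that the fit returned their median size. Its spread came from TW-1-M-3 and TW-1-1 and not from TW-1-3, so it does not bear on the calls. Members were called at an unadjusted p-value below 0.05 and a log2 fold change beyond 1. The study gives these limits for its cuffdiff test, which needs reads, but whether its p-value was corrected is not clear from its methods. The columns hold no comparisons of the authors.

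The naming rule took the first 20 members, up to 4 of each functional list, the 5 smallest stage 3 p-values in each direction, the 5 most abundant members and those at the limit. Further members with a symbol or description were named after their values were seen. Pairs of similar proteins were not sought, since no sequences were used here. Symbols came from the Glycine_max_v4.0 table, matched without the accession version for 172 members (16 with it). Its coordinates served to place members on chromosomes and to find neighbours and overlapping genes. Alternatives were a pseudocount of 0.1, other filters, quantile normalization, a replicate block, one fit of all 18 libraries, and each library left out. Python 3.11.15, NumPy 2.4.6, pandas 2.3.3 and matplotlib 3.10.9 were used.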

Additional observations from a re-analysis of the deposited data

Results flagged for a closer look

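For XM_003550508.3, a member with no description, every TW-1-M-2 library was below every TW-1-M-1 library while every TW-1-2 library was above every TW-1-1 library. It had 7.77, 13.5 and 16.7 FPKM in TW-1-M-2 and 28.6, 36.9 and 24.5 in TW-1-M-1, a difference of medians of -1.03 on the log2 scale. In TW-1 it had 26.4, 27.4 and 27.96 FPKM in TW-1-2 and 22.1, 19.3 and 20.4 in TW-1-1, a difference of 0.41. All TW-1-2 libraries were above all TW-1-1 libraries for 4 of the 200 members, beside 2191 of all 27150 genes. Such a rise in TW-1 was thus not particular to the members. The difference between the mutants was not tested, since these stages chose the members. At stage 3 no member moved in opposite directions in all libraries of the mutants relative to stage 1.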

How the results depend on the processing

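The number of members lower in TW-1-M-3 was 48 and ranged from 35 to 60 over the 12 alternatives (35 to 55 with a library left out). The number of all genes called lower moved as well, and was 827 in the main fit. The 60 members of the fit of all 18 libraries stood beside 1483 of 27150 genes. Without replicate 3 of TW-1-3, 55 members stood beside 1228 genes, and without its replicate 2, 50 beside 1489. Without replicate 1 of TW-1-M-3, 35 members stood beside 372 genes. The number of members higher was 2, with 4 at a pseudocount of 0.1, 1 with no filter, and 1 to 4 with a library left out. After adjustment no member was lower, while quantile normalization gave 1, the fit of all 18 libraries 24 (508 of all genes), and the fits with a library left out 0 to 4. The median log2 fold change lay between -1.19 and -0.51. Replicate numbers did not pair the libraries at stage 3 (correlations of deviations of -0.21, -0.58 and 0.20), and the fit with a replicate block called the same number lower, 48, with 2 higher and none after adjustment. Of 188 values of 16 named members under the alternatives, 184 kept direction and call; VPE2 passed without TW-1-3 replicate 1 (-2.78) or TW-1-M-3 replicate 2 (-3.01), and MIPS4 ran over -1.43 to 0.17 with a library left out, above 0 without replicate 3 of TW-1-3 (0.04) or TW-1-M-3 (0.17). The rule itself was less stable: of the 200 members, 110 were found again with a pseudocount of 0.1, 111 with means in place of medians, 156 after quantile normalization, 193 without exclusions and 109 to 165 with a library left out. The count of members lower in TW-1 by 1 or more at stage 3 than at stage 1 was 119, and 102 to 131 with a library of either stage left out, an alternative added after the data were seen. The causes were not tested. The files hold no read counts, so the depth behind low values is unknown.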
